A study of Mus musculus with 9 samples.

Results

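The data describe 40 genes of NF-kB and inflammatory signalling in mouse bone marrow haematopoietic stem cells (HSCs), the self-renewing cells from which blood is made. The genes were taken by symbol from the deposited table, which lists 19454 genes. All 40 were found, and all 40 had enough counts to be among the 14461 genes tested. The 9 libraries fall into 3 groups of 3, and each library began with 1500 sorted HSCs and 12 PCR cycles. In the inhibition with spermidine group, called the spermidine group here, wild-type mice had the mPFC and PAG brain regions inhibited chemogenetically and also received a spermidine supplement. In the inhibition group, wild-type mice had the same regions inhibited without the supplement. In the control group, wild-type mice had no brain intervention named in the labels. The library names of both inhibited groups carry AAV, a viral gene carrier, and those of control do not, so effects of the virus, the drug and the inhibition cannot be told apart. The labels used here give no receptor, promoter or drug for the inhibition, no age or sex, no sort markers and no number of animals per library. P-values therefore measure only the spread between these libraries, which may be technical.

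NF-kB is a family of dimeric transcription factors held in the cytoplasm by IkB proteins. When a ligand such as TNF, IL-1 or a bacterial product binds its receptor, adaptors and kinases activate the IKK complex, which marks IkB for destruction and frees NF-kB to enter the nucleus. Among the genes NF-kB switches on are its own inhibitors, such as IkB alpha and A20, which end the response. In HSCs the pathway is known for balancing maintenance against inflammatory activation and myeloid output.

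Total counts per library were 16096117 to 22467091 in the spermidine group, 17231707 to 25360110 in the inhibition group and 17691118 to 20432699 in the control group. Libraries of a group correlated across genes at 0.989 to 0.993 in log2 CPM, and a mean chi-squared per gene of 2.31 to 7.22 between them lay above the value of 1 that counting noise alone would give. Of 12 HSC marker genes, all were above 0 in every library except Fgd5, which was at 0 in at least 1 control library. Several of these markers were low in control, as Procr (7.58 CPM on average in the spermidine group, 4.10 CPM in the inhibition group and 0.125 CPM in control) and Hlf (37.6, 22.3 and 2.49 CPM in the same order). Markers of other marrow cells were also present. The 15 neutrophil granule genes summed to 20319 to 20938 CPM in the spermidine libraries, 58184 to 59843 CPM in the inhibition libraries and 4178 to 4369 CPM in control libraries. A list of 11 late neutrophil genes, without Il1r2, summed to 856 to 886, 2336 to 2407 and 503 to 564 CPM in the same order, with Cxcr2 giving 361 CPM of the control level. The 15 monocyte and macrophage genes summed to 682 to 711 CPM in the spermidine libraries, 1332 to 1351 CPM in the inhibition libraries and 685 to 706 CPM in control libraries. Stfa2 and Mrc1 were the markers of these 3 lists that stood at 0 in a library, in control. Other lists also separated the groups. The 11 B and plasma cell genes summed to 1696 to 1835 CPM in the spermidine libraries, 4551 to 4960 CPM in the inhibition libraries and 68.9 to 71.1 CPM in control libraries, with Pax5 at 0 in a library of inhibition and of control. The 7 megakaryocyte genes summed to 171 to 180.1, 162 to 172 and 2979 to 3003 CPM in the same order, and the 5 listed erythroid genes to 106 to 112, 212 to 233 and 1710 to 1749.8 CPM. The part of these lists in the results was not tested, and any difference between groups in the sort gate or the animals cannot be told apart from the treatments. In such bulk libraries, more cells of a type and more RNA per cell cannot be told apart.

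**Figure D1:**
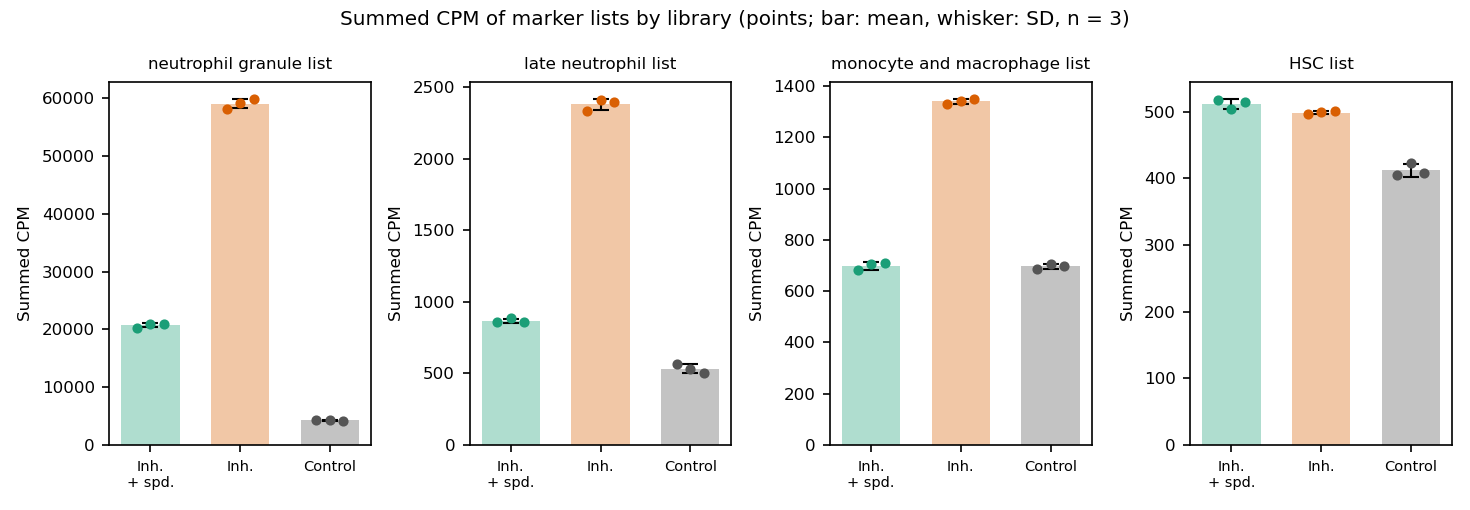
Summed CPM of 4 marker gene lists in each library; points are libraries, bars the group mean and whiskers the SD (n = 3), with inhibition plus spermidine (Inh. + spd.) on the left, inhibition (Inh.) in the middle and control on the right. The neutrophil granule list reached 58184 to 59843 CPM in inhibition libraries, above all spermidine and control libraries. The HSC list summed to between 405 and 517 CPM in all 9 libraries, but its genes moved in both directions. Ly6a averaged 94.4, 83.5 and 6.21 CPM from left to right, and Slamf1 13.7, 17.6 and 104 CPM. Cd48 was the largest part of the sum in each group (182, 239 and 205 CPM).

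Levels of different genes were compared as TPM, which is scaled for transcript length. Nfkbia, which encodes IkB alpha, was the most abundant of the 40, at 524 ± 8.04 TPM in the spermidine group, 358 ± 10.1 TPM in the inhibition group and 588 ± 9.87 TPM in control (mean and SD, n = 3 each). Pycard, the inflammasome adaptor ASC, was next at 461 ± 10.3, 450.1 ± 18.1 and 239 ± 6.41 TPM in the same order, and it exceeded Nfkbia in the inhibition group. These 2 genes were the only members above 100 TPM on average over the groups, 8 members were above 10 TPM and 36 were above 1 TPM. Nlrp3, the inflammasome sensor, was the lowest on average over the groups at 0.546 ± 0.175, 0.243 ± 0.125 and 0.309 ± 0.104 TPM, followed by Relb at 0.755 ± 0.364, 0.219 ± 0.136 and 0.529 ± 0.0619 TPM. Within the inhibition group Relb was below Nlrp3, and in control Il1rn and Tlr4 were below both. The order of the other genes was close in places, and neighbours such as Myd88 and Irak4 traded places between groups. Il1r2, the decoy receptor of IL-1, had the widest ratio between groups, with 17.7 ± 0.665, 43.5 ± 0.752 and 0.855 ± 0.0961 TPM.

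**Figure D2:**
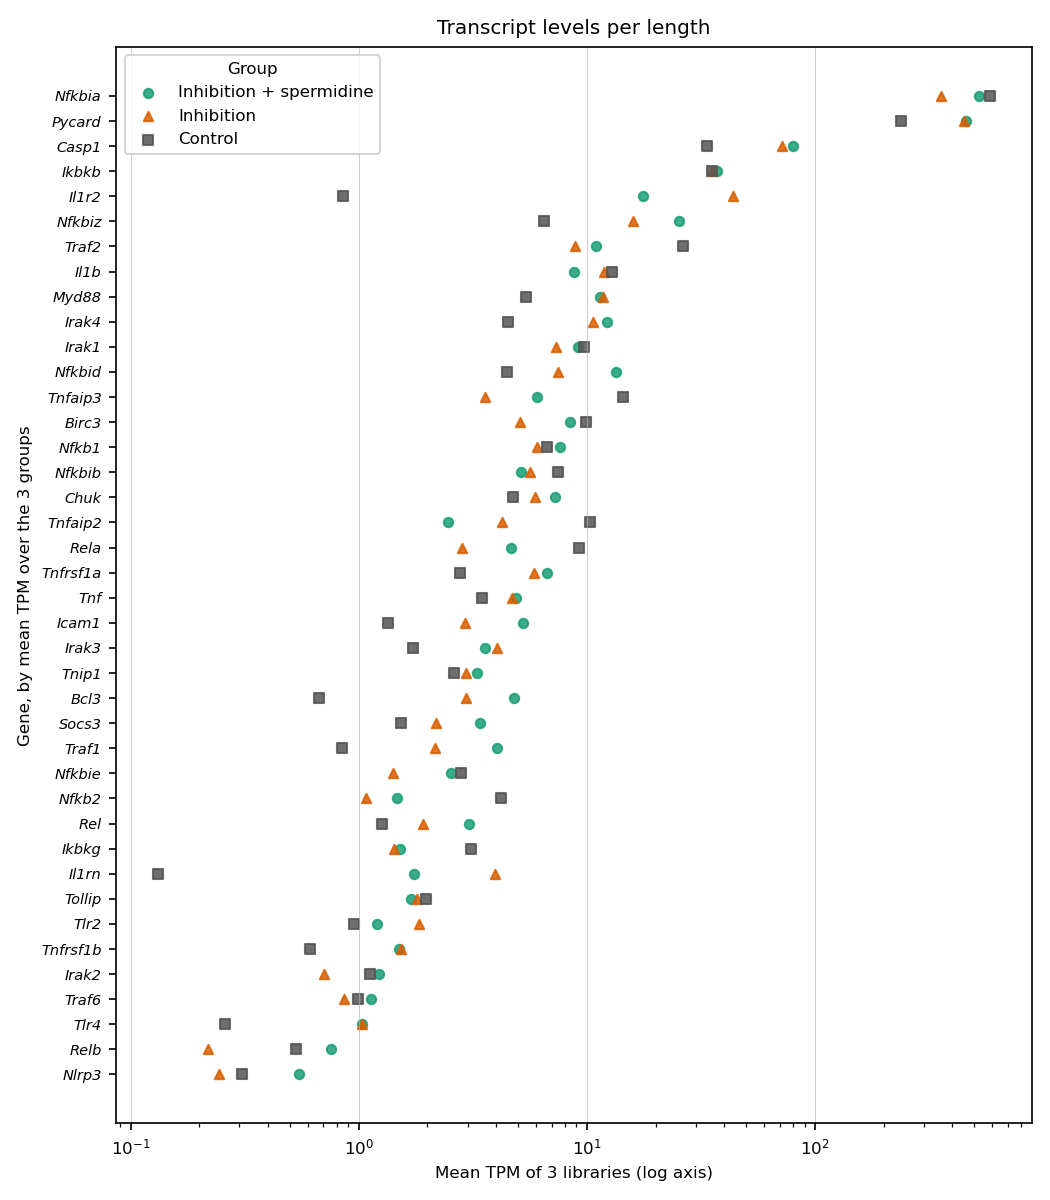
Mean TPM of each of the 40 genes in the 3 groups (n = 3 libraries each) on a log axis, with genes ordered by their mean over the groups. Nfkbia and Pycard lie above 100 TPM in every group, Nlrp3 and Relb are lowest on average over the groups, and Il1r2 and Il1rn show the widest gaps between groups.

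Inhibition against control was the first comparison and addressed how these genes differ in HSCs of mice whose 2 brain regions were inhibited. Receptors and the IL-1 antagonists were higher with inhibition, led by Il1r2 and Il1rn. NF-kB subunits other than Rel were lower, as were the classical IkB genes and A20 (Tnfaip3), while the atypical, nuclear IkB genes Nfkbiz, Nfkbid and Bcl3 were higher. Signal carriers split, with Myd88 and Irak4 higher and Traf2 and Birc3 lower. In edgeR's quasi-likelihood test, with a Benjamini-Hochberg adjusted p below 0.05 as threshold, 20 members passed as higher, 15 passed as lower and 5 did not pass. Of all tested genes 36.2% passed as higher and 36.1% as lower (72.4% in either direction), so passing is common in this series. At a change of at least 2-fold, 12 members were higher and 8 lower, where 15.0% and 14.0% of all tested genes were. The libraries of both groups did not overlap for 37 of the 40 members, against 74.5% of all tested genes. The members' median log2 fold change was 0.21, against 0.021 over all tested genes, and their median absolute log2 fold change was 0.99, against 0.59. Of the 35 members called, 29 kept direction and call under every alternative processing and left-out library in which they had enough counts. The 6 others were Nfkb1, Relb, Ikbkb, Chuk, Traf1 and Tollip. On log2(TPM + 1), which compresses low genes, 6 members were at least 2-fold higher and 5 at least 2-fold lower, and the log2 fold change of Tlr4 was 0.69, of Socs3 0.35 and of Tnfrsf1b 0.65.

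**Figure D3:**
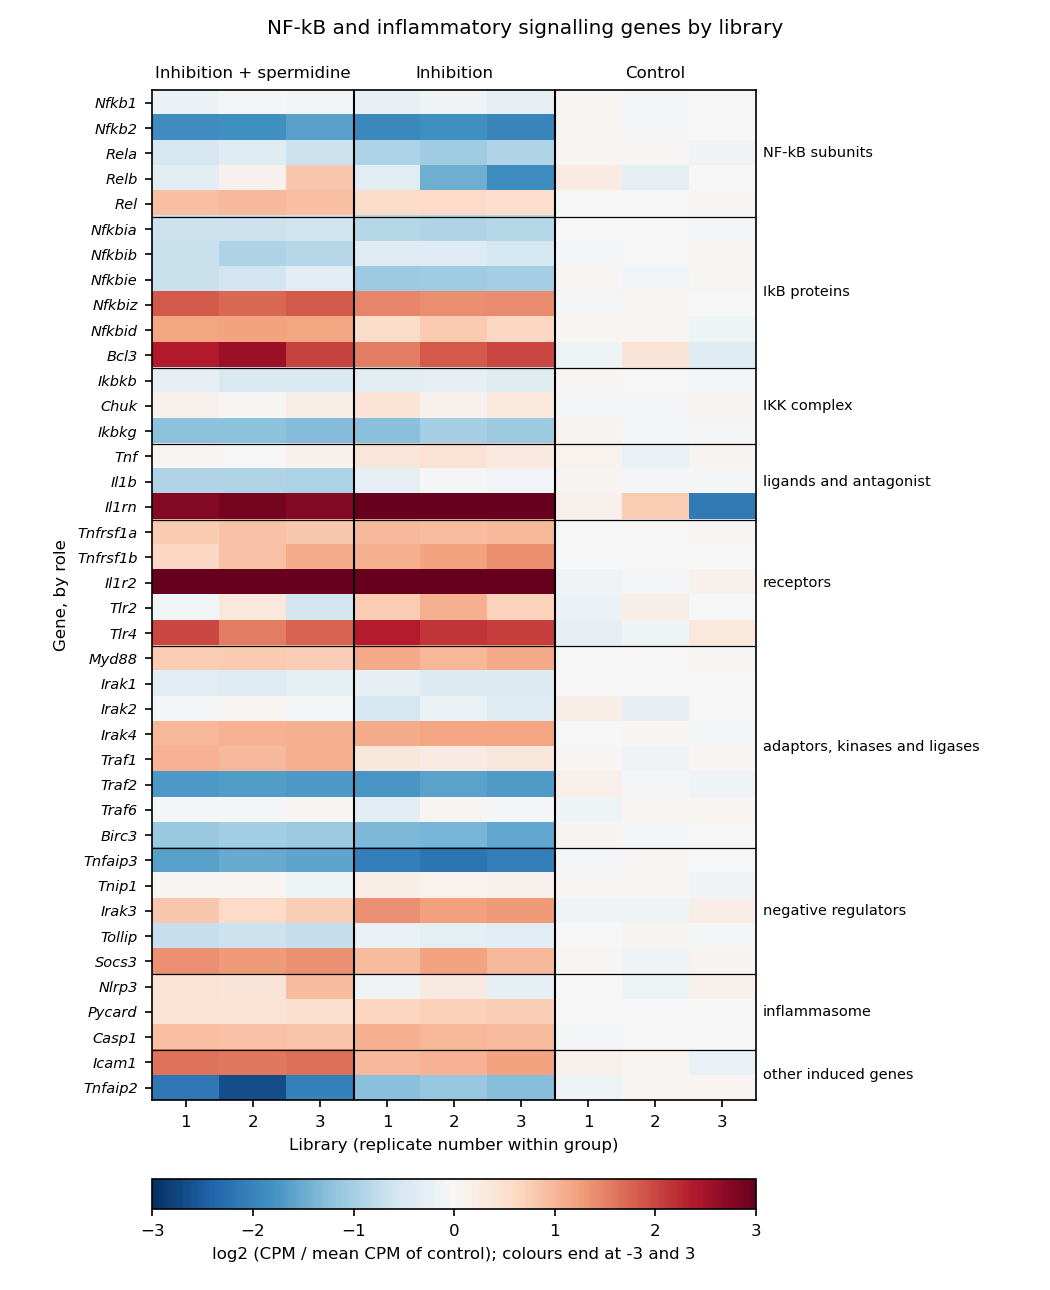
Each row is a gene and each column a library, coloured by the log2 ratio of its CPM to the mean CPM of the 3 control libraries; spermidine libraries are on the left, inhibition libraries in the middle and control libraries on the right. Within a group most rows have an even colour; Relb and control Il1rn, which rest on few counts, vary most.

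The second comparison, inhibition with spermidine against inhibition, asks how these genes differ between inhibited mice with and without the supplement. NF-kB subunits Rela, Relb and Rel, the IkB genes Nfkbia, Nfkbie, Nfkbiz and Nfkbid, and the induced genes Tnfaip3, Traf1, Birc3 and Icam1 were higher with spermidine. The IL-1 genes Il1b, Il1r2 and Il1rn were lower, together with Tlr2 and Tnfaip2. These 16 genes kept direction and call under every alternative processing and every left-out library in which they had enough counts. They were 11 of the 13 called higher and 5 of the 16 called lower. Library totals raise the log2 fold changes here by 0.26, and limma on TPM uses no TMM factors. Higher calls are thus easier to keep than lower ones, so the 11 and the 5 cannot be compared. The share of all tested genes kept in this way was not counted in any comparison. With TMM factors, edgeR's test passed 13 members as higher and 16 as lower, and 11 did not pass, where 29.1% of all tested genes passed as higher and 28.9% as lower (58.1% in either direction). This split depends on scaling: with library totals in place of TMM factors the count was 23 higher and 6 lower, and with limma on log2(TPM + 1) it was 23 higher and 5 lower. Scaling by totals shifted the median log2 fold change of all tested genes by 0.26, and the changes here are relative to the middle of the tested genes. Under library totals Nfkb1, Irak1 and Traf6, which did not pass with TMM, passed as higher (0.34, 0.27 and 0.33). At least 2-fold changes were fewer than in the first comparison, with 1 member higher and 3 lower, where the shares were 9.45% and 3.24% of all tested genes. The libraries of both groups did not overlap for 30 members, against 62.8% of all tested genes. The members' median log2 fold change was -0.057, against 0.027 over all tested genes. The first 2 comparisons share the inhibition libraries, so a high or low value there moves both in opposite directions.

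**Figure D4:**
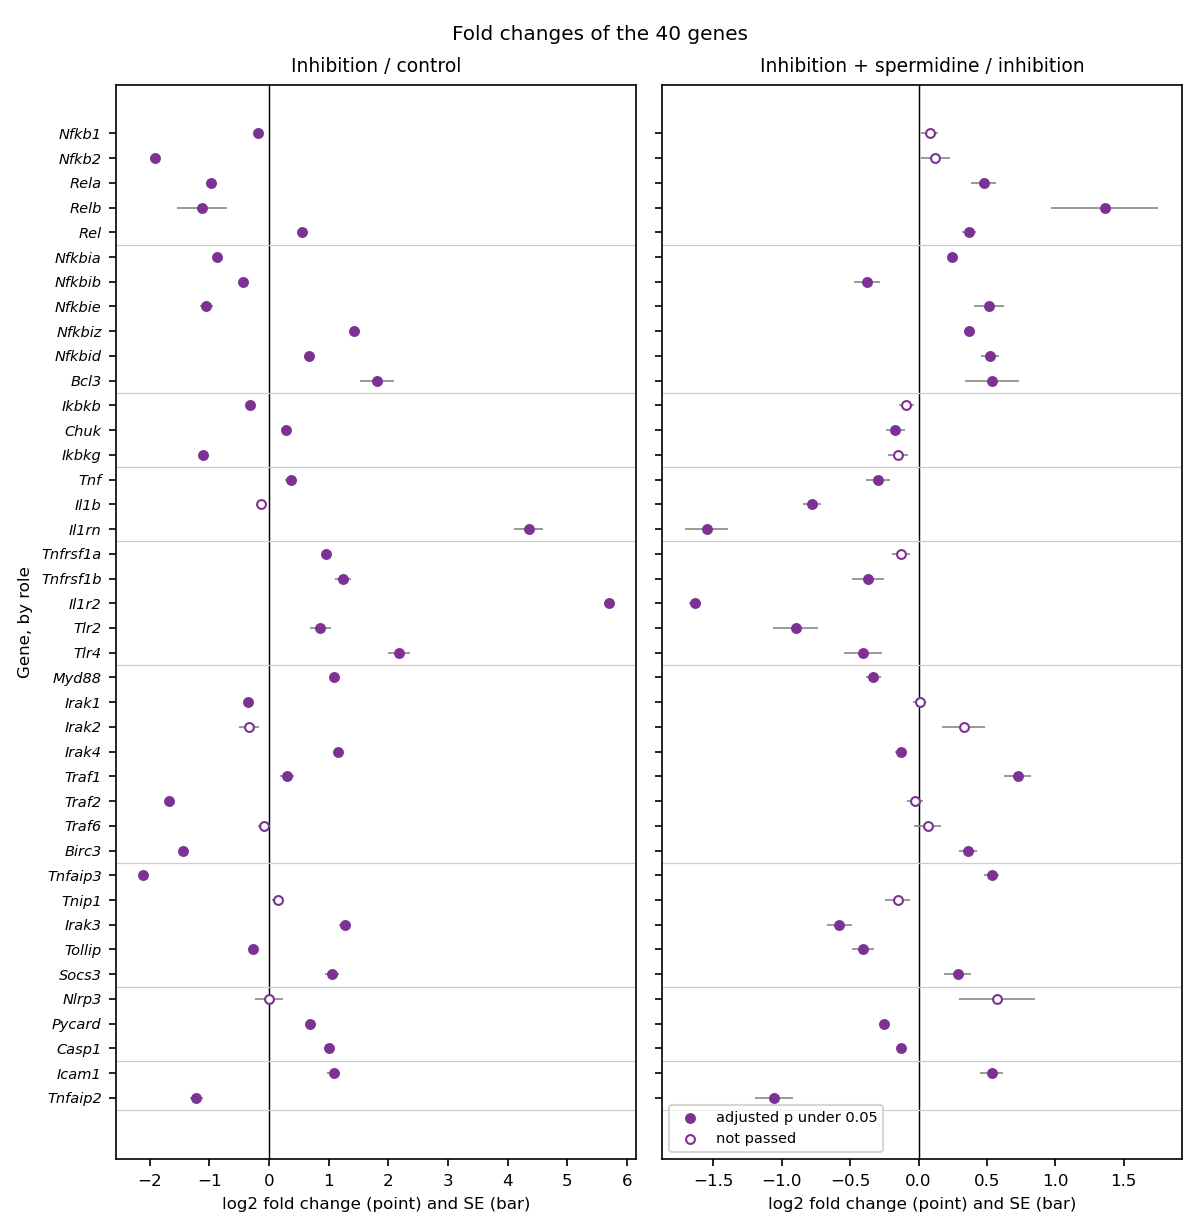
log2 fold change (points) with its SE (bars) of each gene for inhibition over control on the left and inhibition plus spermidine over inhibition on the right; the panels have different horizontal scales, and open points did not pass at an adjusted p of 0.05. Il1r2 lies at 5.69 on the left and -1.63 on the right.

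The third comparison, inhibition with spermidine against control, shares libraries with both others and asks which differences from control were present with the supplement. Here edgeR's test passed 17 members as higher and 14 as lower, and 9 did not pass, where 41.0% of all tested genes passed as higher and 37.1% as lower (78.1% in either direction). Of these 31, 10 were higher and 6 lower at least 2-fold, against 20.7% and 12.2% of all tested genes, and 32 of the 40 members had libraries that did not overlap, against 79.8%. The members' median log2 fold change was 0.091, against 0.060 over all tested genes. Il1r2 stayed the most raised member and Tnfaip2 was the most lowered. Direction and call were the same under every alternative and left-out library for 27 of the 31; the other 4 were Nfkbie, Ikbkb, Irak1 and Tollip. Scaling by totals shifted the median of all tested genes upward by 0.26 here as well, so higher calls are again easier to keep than lower ones.

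Among the ligands, Il1b encodes interleukin 1 beta, the cytokine released after inflammasome activation. It had 12.3, 12.4 and 11.9 CPM in the spermidine libraries, 19.0, 22.0 and 21.6 CPM in the inhibition libraries and 24.2, 22.2 and 22.4 CPM in control libraries. The spermidine libraries were all below the other 6, and inhibition and control libraries came close without overlapping. Il1b was lower with spermidine than with inhibition alone (adjusted p = 7.8e-08, log2 fold change -0.78, SE 0.069 by edgeR), and for inhibition against control the change did not pass (adjusted p = 0.0819, log2 fold change -0.13, SE 0.065, 95% interval -0.26 to -0.0031). Tnf, which encodes tumour necrosis factor, had 8.22, 7.90 and 8.57 CPM in the spermidine libraries, 10.1, 10.5 and 9.54 CPM in the inhibition libraries and 8.43, 6.81 and 8.25 CPM in control libraries. It was higher with inhibition than in control (log2 fold change 0.37, SE 0.094). With spermidine Tnf was lower than with inhibition under TMM scaling (log2 fold change -0.30, SE 0.089), a call lost with library totals, with a limit of 5 CPM and without inhibition replicate 2, while on log2(TPM + 1) the sign turned (0.042). Tnf did not pass for spermidine against control under TMM scaling (adjusted p = 0.506, log2 fold change 0.07, SE 0.095) but passed as higher there with library totals (0.33).

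Il1rn encodes the IL-1 receptor antagonist, a secreted protein that occupies the receptor without signalling. It had 3.02, 3.28 and 2.99 CPM in the spermidine libraries, 8.17, 9.63 and 9.34 CPM in the inhibition libraries and 0.485, 0.750 and 0.103 CPM in control libraries. The 3 groups did not overlap, with inhibition highest and control lowest. The control libraries held only 8, 14 and 2 counts, and without control replicate 2 the log2 fold change of inhibition over control was 5.00 and that of spermidine over control 3.45, against 4.35 and 2.80 with all libraries. By edgeR Il1rn rose with inhibition (adjusted p = 4.69e-11, log2 fold change 4.35, SE 0.24) and was lower again with spermidine (adjusted p = 3.72e-07, log2 fold change -1.55, SE 0.16). The counts and TPM values of Il1rn imply a transcript length that was 0.52 lower on the log2 scale in inhibition than in control libraries. In the spermidine group Il1rn thus stood between the other groups and Il1b below both.

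The receptor gene with the widest change was Il1r2 (ENSMUSG00000026073, chr1:40074079-40125231, plus strand), which encodes the decoy receptor that binds IL-1 without passing on a signal. It had 24.5, 25.9 and 25.1 CPM in the spermidine libraries, 77.7, 77.9 and 78.4 CPM in the inhibition libraries and 1.39, 1.45 and 1.65 CPM in control libraries. No library of one group came near another group. The edgeR fold change for inhibition over control was 51.7 (adjusted p = 1.61e-19, log2 fold change 5.69, SE 0.072), and Il1r2 was lower with spermidine than with inhibition (adjusted p = 2.24e-14, log2 fold change -1.63, SE 0.042) but above control (adjusted p = 9.14e-17, log2 fold change 4.06, SE 0.083). Il1r2 is also abundant in mature neutrophils, and the neutrophil granule list had the same order of groups (20319 to 20938 CPM in the spermidine libraries, 58184 to 59843 CPM in the inhibition libraries and 4178 to 4369 CPM in control libraries). Its part in the result for Il1r2 and Il1rn was not tested.

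Of the Toll-like receptors, Tlr4 senses bacterial lipopolysaccharide and Tlr2 senses bacterial lipoproteins. Tlr4 had 5.20, 3.75 and 4.42 CPM in the spermidine libraries, 6.63, 5.73 and 5.45 CPM in the inhibition libraries and 1.09, 1.18 and 1.60 CPM in control libraries. All 6 inhibited libraries were above the control libraries, and Tlr4 rose with inhibition (adjusted p = 1e-08, log2 fold change 2.18, SE 0.18 by edgeR). Tlr2 had 3.42, 4.54 and 2.49 CPM in the spermidine libraries, 6.20, 7.68 and 5.90 CPM in the inhibition libraries and 3.21, 4.13 and 3.61 CPM in control libraries. Here the spermidine libraries overlapped control and the inhibition libraries stood above both. Tlr2 rose with inhibition over control (adjusted p = 0.000291, log2 fold change 0.86, SE 0.17 by edgeR) and was lower with spermidine than with inhibition (adjusted p = 0.000245, log2 fold change -0.90, SE 0.17). For spermidine against control Tlr2 did not pass (adjusted p = 0.858, log2 fold change -0.039, SE 0.19, 95% interval -0.41 to 0.33). The fall of Tlr4 with spermidine (log2 fold change -0.40, SE 0.14) was lost when totals replaced TMM. It was also lost with DESeq2, another count-based test, with limma on TPM, and without spermidine replicate 2 or inhibition replicate 1.

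Both TNF receptors were higher with inhibition than in control. Tnfrsf1a, the widely expressed receptor that signals survival or death, averaged 13.1 ± 0.418 CPM in the spermidine group, 14.4 ± 0.383 CPM in the inhibition group and 7.38 ± 0.126 CPM in control (SD, n = 3 each; inhibition over control log2 fold change 0.96, SE 0.074). Tnfrsf1b, the receptor found mainly on immune and endothelial cells, averaged 6.86 ± 1.15 CPM, 8.74 ± 1.03 CPM and 3.72 ± 0.0377 CPM in the same order (inhibition over control log2 fold change 1.24, SE 0.13). All 5 receptor genes passed as higher with inhibition than in control, where 36.2% of all tested genes did, and 4 of 5 passed as higher with spermidine than in control, where 41.0% did. The monocyte and macrophage list was higher in inhibition libraries (1332 to 1351 CPM) than in control libraries (685 to 706 CPM), and its part in these results was not tested. For spermidine over control the log2 fold changes were 1.77 for Tlr4, 0.83 for Tnfrsf1a, 0.87 for Tnfrsf1b and, without passing, -0.039 for Tlr2. The summed monocyte and macrophage list (682 to 711 CPM) overlapped control there, and its genes did not move together. Ly6c2, its largest part, and F13a1 averaged lower with spermidine than in control (412 against 500 and 17.2 against 21.7 CPM). Cd14 and Cd68 averaged higher (29.4 against 7.06 and 61.7 against 27.1 CPM), and the part of these cells was not tested.

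Downstream of the receptors, the adaptor Myd88 joins Toll-like and IL-1 receptors to the kinase Irak4. Myd88 had 23.0, 23.6 and 22.8 CPM in the spermidine libraries, 30.2, 27.4 and 29.9 CPM in the inhibition libraries and 13.5, 13.6 and 13.9 CPM in control libraries. Irak4 had 39.4, 40.7 and 40.9 CPM in the spermidine libraries, 42.4, 44.9 and 44.6 CPM in the inhibition libraries and 19.5, 20.5 and 19.0 CPM in control libraries. Both genes had every inhibited library above every control library. They rose with inhibition over control (Myd88 log2 fold change 1.09, SE 0.06; Irak4 log2 fold change 1.16, SE 0.05) and were also above control with spermidine (Myd88 log2 fold change 0.76, SE 0.06; Irak4 log2 fold change 1.04, SE 0.05). Under TMM scaling both were lower with spermidine than with inhibition (Myd88 log2 fold change -0.33, SE 0.054; Irak4 log2 fold change -0.13, SE 0.044), but with library totals Myd88 did not pass and Irak4 turned higher (0.13). The fall of Irak4 was also lost with DESeq2, with a limit of 5 CPM, and without spermidine replicate 1, inhibition replicate 2 or inhibition replicate 3. On log2(TPM + 1) Irak4 passed as higher (0.18). Irak1, the kinase that Irak4 activates, averaged 39.6 ± 2.56 CPM with inhibition and 50.3 ± 0.632 CPM in control (SD, n = 3 each; log2 fold change -0.35, SE 0.048) and passed as lower. Irak2, its relative, did not pass in any of the 3 comparisons under TMM scaling, with mean levels of 2.35 to 3.01 CPM, but passed as higher with spermidine than with inhibition under library totals (0.59). Part of the exons of Myd88 and Irak4 overlap genes on the other strand (Acaa1a and Twf1, at 11.3% and 7.87% of the member's exon bases), and reads there cannot be assigned without strand.

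TRAF proteins relay signals from TNF receptors (Traf1, Traf2) and from IL-1 and Toll-like receptors (Traf6), and Birc3 encodes the ubiquitin ligase cIAP2 that works with Traf2. Traf2 had 54.4, 56.3 and 54.5 CPM in the spermidine libraries, 53.6, 59.0 and 55.0 CPM in the inhibition libraries and 198, 175 and 165 CPM in control libraries. The 3 control libraries were far above the 6 others, which overlapped each other. Traf2 was lower with inhibition than in control (adjusted p = 4.7e-14, log2 fold change -1.68, SE 0.056 by edgeR) and did not pass between spermidine and inhibition (adjusted p = 0.752, log2 fold change -0.024, SE 0.06), where scaling by totals gave 0.24 with a pass. Birc3 had 18.6, 19.8 and 19.2 CPM in the spermidine libraries, 16.0, 15.3 and 13.7 CPM in the inhibition libraries and 42.7, 38.9 and 40.1 CPM in control libraries. It was lowest with inhibition (adjusted p = 1.48e-12, log2 fold change -1.44, SE 0.062 against control) and higher with spermidine than with inhibition (adjusted p = 0.000234, log2 fold change 0.36, SE 0.066). The implied transcript length of Birc3 was lower by 0.42 (log2) in inhibition than in control libraries. Under the alternatives its log2 fold change ranged from -1.48 to -0.84 for inhibition over control. For spermidine over control it ranged from -1.13 to -0.21, always with a pass. Traf1, itself an NF-kB target, had 7.01, 6.73 and 7.13 CPM in the spermidine libraries, 4.30, 4.03 and 4.30 CPM in the inhibition libraries and 3.52, 3.16 and 3.56 CPM in control libraries. All spermidine libraries lay above the other 6, and Traf1 was higher with spermidine than with inhibition (adjusted p = 1.15e-05, log2 fold change 0.73, SE 0.099 by edgeR). Its rise with inhibition over control (adjusted p = 0.0449, log2 fold change 0.30, SE 0.12) was lost on leaving out any 1 of the inhibition or control libraries. That call was also lost with DESeq2, without the filter on low counts and when only these 2 groups were fitted. The implied transcript length of Traf1 was lower by 0.97 (log2) in inhibition than in control libraries. Traf6 averaged 7.93 ± 0.267 CPM with spermidine, 7.47 ± 1.04 CPM with inhibition and 7.96 ± 0.594 CPM in control and passed in none of the comparisons under TMM scaling (spermidine over control log2 fold change -0.013, SE 0.10, 95% interval -0.21 to 0.19).

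The IKK complex consists of the kinases IKK alpha (Chuk) and IKK beta (Ikbkb) and the scaffold NEMO (Ikbkg). Ikbkg (ENSMUSG00000004221, chrX:74393290-74453854, plus strand) had 12.6, 12.5 and 11.9 CPM in the spermidine libraries, 12.5, 14.7 and 13.8 CPM in the inhibition libraries and 31.2, 28.8 and 28.5 CPM in control libraries. Control libraries stood about 2-fold above all others. Ikbkg was lower with inhibition (adjusted p = 1.67e-10, log2 fold change -1.10, SE 0.067 by edgeR) and with spermidine (adjusted p = 2.88e-11, log2 fold change -1.25, SE 0.067) than in control, and the difference between spermidine and inhibition did not pass (adjusted p = 0.0907, log2 fold change -0.15, SE 0.073). The kinase genes moved less. Ikbkb averaged 29.1 ± 1.96 CPM with spermidine, 31.1 ± 0.817 CPM with inhibition and 38.6 ± 1.25 CPM in control (SD, n = 3 each). Chuk averaged 23.0 ± 1.30 CPM, 25.9 ± 2.52 CPM and 21.2 ± 0.956 CPM in the same order. For inhibition over control Ikbkb was lower (log2 fold change -0.31, SE 0.054) and Chuk higher (log2 fold change 0.28, SE 0.072), and neither passed on log2(TPM + 1).

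The 5 NF-kB subunits are RelA (Rela), c-Rel (Rel) and RelB (Relb), which activate transcription, and the precursors p105 (Nfkb1) and p100 (Nfkb2), which are processed to p50 and p52. Nfkb2 (ENSMUSG00000025225, chr19:46304320-46312385, plus strand) had 4.71, 4.85 and 5.59 CPM in the spermidine libraries, 4.54, 4.86 and 4.35 CPM in the inhibition libraries and 17.9, 16.8 and 17.2 CPM in control libraries. The control libraries were above 16 CPM and the other 6 below 6 CPM. Nfkb2 was lower with inhibition than in control (adjusted p = 3.58e-12, log2 fold change -1.91, SE 0.088 by edgeR) and did not pass between spermidine and inhibition under TMM scaling (adjusted p = 0.388, log2 fold change 0.12, SE 0.10), where it passed as higher with library totals (0.38) and on log2(TPM + 1). Rela had 10.2, 11.3 and 9.29 CPM in the spermidine libraries, 7.62, 6.93 and 7.84 CPM in the inhibition libraries and 15.2, 15.0 and 13.6 CPM in control libraries. Its 3 groups did not overlap, with inhibition lowest, and both changes passed by edgeR (inhibition over control adjusted p = 4.76e-08, log2 fold change -0.97, SE 0.091; spermidine over inhibition adjusted p = 0.000372, log2 fold change 0.48, SE 0.093). The counts and TPM values of Rela imply a transcript length 0.80 higher (log2) in inhibition than in control libraries, and the fall with inhibition was larger on the TPM scale.

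Rel was higher with inhibition than in control, where Nfkb2 and Rela were lower. It had 28.1, 29.5 and 28.3 CPM in the spermidine libraries, 22.1, 22.7 and 21.8 CPM in the inhibition libraries and 14.9, 15.0 and 15.5 CPM in control libraries. The order spermidine, inhibition, control held without overlap. Rel rose with inhibition over control (adjusted p = 1.39e-07, log2 fold change 0.56, SE 0.057 by edgeR) and was higher again with spermidine over inhibition (adjusted p = 1.24e-05, log2 fold change 0.37, SE 0.05). Relb, the partner of p52, was near the detection limit with 0.725, 1.02 and 1.60 CPM in the spermidine libraries, 0.737, 0.332 and 0.250 CPM in the inhibition libraries and 1.09, 0.750 and 0.928 CPM in control libraries. It was lower with inhibition than in control (adjusted p = 0.0237, log2 fold change -1.13, SE 0.42 by edgeR). That call was lost on log2(TPM + 1) and without inhibition replicate 2, inhibition replicate 3 or control replicate 1. Relb was higher with spermidine than with inhibition (adjusted p = 0.0075, log2 fold change 1.36, SE 0.39), although these libraries overlapped. Nfkb1 moved little, at 19.6 ± 0.851 CPM with spermidine, 18.4 ± 0.957 CPM with inhibition and 20.99 ± 0.893 CPM in control. Its fall with inhibition (adjusted p = 0.0162, log2 fold change -0.18, SE 0.063 by edgeR) was lost with DESeq2 and with limma on TPM. It was also lost without inhibition replicate 3 or without control replicate 1.

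The classical IkB proteins, IkB alpha (Nfkbia), IkB beta (Nfkbib) and IkB epsilon (Nfkbie), hold NF-kB in the cytoplasm. Nfkbia (ENSMUSG00000021025, chr12:55489410-55492647, minus strand) had 714, 715 and 734 CPM in the spermidine libraries, 615, 592 and 619 CPM in the inhibition libraries and 1125, 1124 and 1092 CPM in control libraries. The groups did not overlap, and inhibition was lowest. By edgeR Nfkbia was lower with inhibition than in control (adjusted p = 2.31e-14, log2 fold change -0.87, SE 0.028) and higher with spermidine than with inhibition (adjusted p = 1.44e-06, log2 fold change 0.24, SE 0.028), while it remained below control with spermidine (adjusted p = 2.04e-12, log2 fold change -0.63, SE 0.028). Nfkbie had 5.36, 5.75 and 6.75 CPM in the spermidine libraries, 4.05, 4.07 and 4.25 CPM in the inhibition libraries and 8.85, 8.04 and 8.82 CPM in control libraries. It had the same order of groups as Nfkbia (inhibition over control log2 fold change -1.05, SE 0.11; spermidine over inhibition log2 fold change 0.52, SE 0.11). Nfkbib had 6.53, 5.47 and 5.75 CPM in the spermidine libraries, 7.92, 7.93 and 7.19 CPM in the inhibition libraries and 9.94, 10.5 and 10.6 CPM in control libraries. Here the spermidine libraries were the lowest, and Nfkbib was lower with inhibition than in control (log2 fold change -0.43, SE 0.089). Its further fall with spermidine (log2 fold change -0.37, SE 0.094) was not passed with library totals or on log2(TPM + 1).

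The atypical IkB proteins act in the nucleus, where IkB zeta (Nfkbiz) and Bcl-3 (Bcl3) can help NF-kB p50 or p52 dimers to activate genes, and IkB NS (Nfkbid) binds p50. Nfkbiz (ENSMUSG00000035356, chr16:55811375-55838899, minus strand) had 86.4, 80.2 and 86.3 CPM in the spermidine libraries, 66.6, 63.7 and 65.2 CPM in the inhibition libraries and 23.2, 25.2 and 24.3 CPM in control libraries. Nfkbid had 25.7, 26.0 and 25.7 CPM in the spermidine libraries, 16.7, 19.4 and 17.5 CPM in the inhibition libraries and 11.8, 11.8 and 10.4 CPM in control libraries. Bcl3 had 2.78, 3.17 and 2.16 CPM in the spermidine libraries, 1.54, 1.91 and 2.15 CPM in the inhibition libraries and 0.485, 0.697 and 0.412 CPM in control libraries. For each of these 3 genes the spermidine group was highest and control lowest, and the 3 groups did not overlap, although for Bcl3 the nearest spermidine and inhibition libraries were 2.16 and 2.15 CPM. All passed as higher with inhibition than in control by edgeR (Nfkbiz 1.42, SE 0.048, adjusted p = 5.09e-14; Nfkbid 0.67, SE 0.075, adjusted p = 4.43e-07; Bcl3 1.81, SE 0.28, adjusted p = 1.85e-05; log2 fold change first). They were also higher with spermidine than with inhibition (Nfkbiz 0.37, SE 0.041, adjusted p = 9.99e-07; Nfkbid 0.52, SE 0.065, adjusted p = 4.04e-06; Bcl3 0.54, SE 0.20, adjusted p = 0.0277; log2 fold change first). The last call, for Bcl3, was lost with DESeq2 and without spermidine replicate 1, spermidine replicate 2, inhibition replicate 1 or inhibition replicate 2. In inhibition against control, then, the 3 classical IkB genes passed as lower and the 3 atypical ones as higher. Of all tested genes 36.1% passed as lower and 36.2% as higher there, so a pass of each is common.

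**Figure D5:**
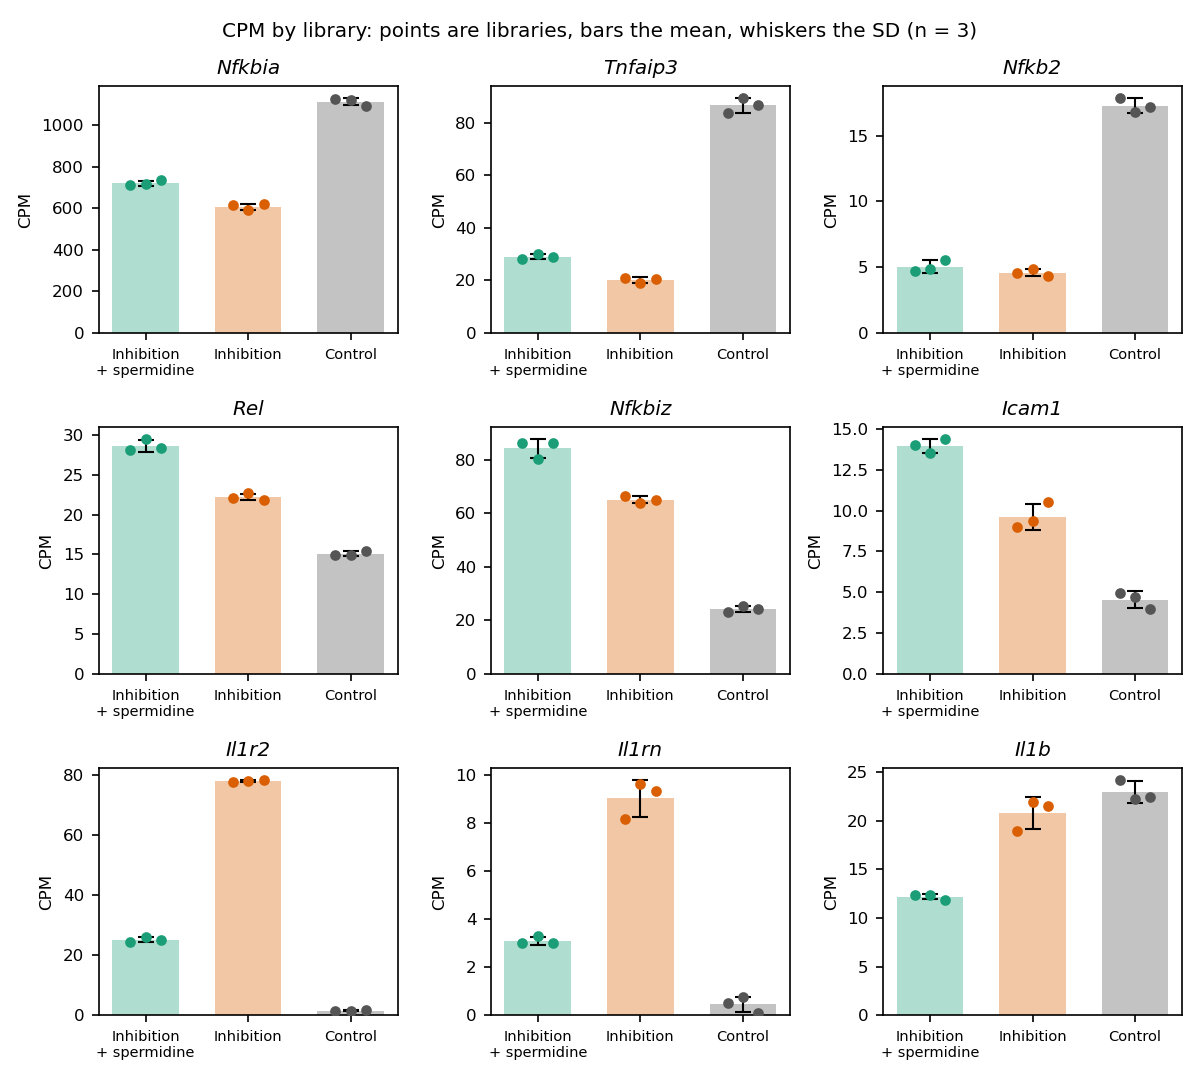
CPM of 9 genes in each library; points are libraries, bars the group mean and whiskers the SD (n = 3), with inhibition plus spermidine on the left, inhibition in the middle and control on the right. Nfkbia, Tnfaip3 and Nfkb2 are highest in control, Rel, Nfkbiz and Icam1 are highest with spermidine, Il1r2 and Il1rn are highest with inhibition, and Il1b is lowest with spermidine.

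Several of these genes are known targets of NF-kB themselves, so their promoter windows were searched for its binding motif. The classical kappaB consensus, a motif of 10 bases, was searched on both strands of RefSeq promoter windows of 300 bases on GRCm38.p6, from 250 bases before the start to 50 after it, using the first listed window of a gene. Of the members, 35 had a window, and 8 of these held a match, against 4.35% of 27025 promoters in the table. The 8 were Nfkb2, Rel, Nfkbia, Nfkbie, Tnfaip3, Tnip1, Tlr2 and Bcl3. The 5 sequences below were chosen after the values were seen, to show matched genes of both directions with inhibition. They run 5′ to 3′ on the gene's strand, from 150 bases before the start to 20 bases from it, with matches in capitals and overlapping matches joined.
Nfkb2: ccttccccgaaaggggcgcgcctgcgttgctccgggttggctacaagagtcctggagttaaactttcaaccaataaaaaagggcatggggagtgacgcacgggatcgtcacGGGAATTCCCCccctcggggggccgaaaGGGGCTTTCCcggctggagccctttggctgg
Nfkbia: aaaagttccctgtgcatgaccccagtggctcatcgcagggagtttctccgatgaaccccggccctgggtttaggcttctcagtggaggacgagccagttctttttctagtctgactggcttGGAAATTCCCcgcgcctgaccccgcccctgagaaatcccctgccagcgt
Tnfaip3: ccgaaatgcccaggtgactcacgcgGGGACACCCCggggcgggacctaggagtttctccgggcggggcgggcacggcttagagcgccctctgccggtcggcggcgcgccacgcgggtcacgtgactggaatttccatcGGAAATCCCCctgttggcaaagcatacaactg
Rel: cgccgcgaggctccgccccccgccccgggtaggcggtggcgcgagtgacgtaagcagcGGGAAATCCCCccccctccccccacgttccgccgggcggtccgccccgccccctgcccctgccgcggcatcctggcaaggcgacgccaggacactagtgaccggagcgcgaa
Bcl3: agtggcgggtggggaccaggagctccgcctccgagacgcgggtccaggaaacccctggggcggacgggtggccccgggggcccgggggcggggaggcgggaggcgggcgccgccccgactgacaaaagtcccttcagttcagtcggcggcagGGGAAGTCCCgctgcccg
These windows lie at chr19:46304587-46304756, plus strand, for Nfkb2, at chr12:55492628-55492797, minus strand, for Nfkbia, at chr10:19015391-19015560, minus strand, for Tnfaip3, at chr11:23770950-23771119, minus strand, for Rel, and at chr7:19822736-19822905, minus strand, for Bcl3. The match of Nfkbia, GGAAATTCCC, begins 29 bases before the start, and that of Rel, GGGAAATCCCC, begins 92 bases before it. Nfkb2 holds 2 separate matches, 39 and 11 bases before the start, and Tnfaip3 also holds 2, at 125 and 12 bases. In Bcl3 the match begins at the third transcribed base. Of the 8 genes with a match, Nfkb2, Nfkbia, Nfkbie and Tnfaip3 passed as lower with inhibition than in control, Rel, Bcl3 and Tlr2 passed as higher and Tnip1 did not pass. With spermidine against inhibition, Nfkbia, Nfkbie, Tnfaip3, Rel and Bcl3 passed as higher, Tlr2 passed as lower, and Nfkb2 and Tnip1 did not pass under TMM scaling. A match describes these letters only and is no evidence of binding.

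Among the negative regulators, Tnfaip3 (ENSMUSG00000019850, chr10:19000910-19015657, minus strand) encodes A20, the ubiquitin-editing enzyme that shuts off NF-kB signalling. It had 28.1, 30.1 and 28.8 CPM in the spermidine libraries, 20.9, 18.9 and 20.5 CPM in the inhibition libraries and 83.5, 89.3 and 86.8 CPM in control libraries. The 3 groups did not overlap, with inhibition lowest and control highest. Tnfaip3 was lower with inhibition than in control (adjusted p = 4.09e-16, log2 fold change -2.11, SE 0.05 by edgeR), higher with spermidine than with inhibition (adjusted p = 3.92e-07, log2 fold change 0.54, SE 0.054) and lower with spermidine than in control (adjusted p = 9.03e-15, log2 fold change -1.58, SE 0.046). Tnip1, a binding partner of A20, passed in none of the comparisons under TMM scaling (inhibition over control log2 fold change 0.15, SE 0.095, 95% interval -0.041 to 0.33). Irak3, a kinase-dead relative that restrains Toll-like receptor signals, had 10.03, 8.49 and 9.51 CPM in the spermidine libraries, 14.7, 13.4 and 13.9 CPM in the inhibition libraries and 5.27, 5.25 and 6.60 CPM in control libraries. Inhibition libraries were highest, and Irak3 rose with inhibition over control (adjusted p = 4.85e-09, log2 fold change 1.28, SE 0.10 by edgeR). It was lower with spermidine than with inhibition (adjusted p = 4.23e-05, log2 fold change -0.58, SE 0.089), a call not passed on log2(TPM + 1).

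Socs3, a feedback inhibitor of cytokine receptor signalling, had 7.25, 6.77 and 7.25 CPM in the spermidine libraries, 5.34, 6.47 and 5.45 CPM in the inhibition libraries and 2.85, 2.57 and 2.94 CPM in control libraries. Every inhibited library lay above control, and Socs3 was higher than in control with inhibition (adjusted p = 8.59e-07, log2 fold change 1.06, SE 0.12 by edgeR) and with spermidine (adjusted p = 2.31e-08, log2 fold change 1.34, SE 0.12). Its rise with spermidine over inhibition (adjusted p = 0.0241, log2 fold change 0.29, SE 0.10) was lost with DESeq2 and without the filter on low counts. This call was also lost without spermidine replicate 1 or 3 and without inhibition replicate 1 or 3. The implied transcript length of Socs3 was 0.54 higher (log2) with inhibition than in control. Tollip, an adaptor that dampens IL-1 and Toll-like receptor signals, averaged 7.64 ± 0.245 CPM with spermidine, 10.2 ± 0.477 CPM with inhibition and 12.2 ± 0.583 CPM in control (SD, n = 3 each). It was lower in both inhibited groups than in control (log2 fold change -0.27, SE 0.076 with inhibition and -0.68, SE 0.078 with spermidine). Neither call passed on log2(TPM + 1), and the inhibition call was also lost with DESeq2. Of the 5 negative regulators, 2 rose and 2 fell with inhibition, A20 by the widest margin. This split is near that of all tested genes, of which 36.2% passed as higher and 36.1% as lower.

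The inflammasome genes Pycard and Casp1 were higher in both inhibited groups. Casp1 encodes the protease that cuts pro-IL-1 beta into its active form, and it had 132, 129.8 and 128 CPM in the spermidine libraries, 148, 141 and 136 CPM in the inhibition libraries and 69.2, 71.4 and 70.7 CPM in control libraries. Pycard had 325, 326 and 335 CPM in the spermidine libraries, 376, 395 and 401 CPM in the inhibition libraries and 238, 243 and 244 CPM in control libraries. For both genes all control libraries were lowest, and the rise with inhibition passed by edgeR (Casp1 adjusted p = 1.43e-13, log2 fold change 1.01, SE 0.037; Pycard adjusted p = 2.12e-12, log2 fold change 0.69, SE 0.031). The small falls with spermidine against inhibition under TMM scaling (Casp1 log2 fold change -0.13, SE 0.035; Pycard log2 fold change -0.25, SE 0.03) turned to 0.13 and 0.0086 with library totals. Nlrp3, the sensor of this inflammasome, had 10 to 23 counts per library. It passed in none of the comparisons under TMM scaling (spermidine over inhibition adjusted p = 0.0891, log2 fold change 0.58, SE 0.28, 95% interval 0.027 to 1.12), and with library totals it passed as higher with spermidine than with inhibition and than in control (0.83 and 0.84).

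Icam1 and Tnfaip2 are NF-kB induced genes that moved in opposite directions. Icam1, an adhesion molecule for leukocyte integrins, had 14.0, 13.5 and 14.4 CPM in the spermidine libraries, 8.97, 9.34 and 10.5 CPM in the inhibition libraries and 4.97, 4.72 and 3.97 CPM in control libraries. The groups did not overlap, with spermidine highest, and Icam1 was higher with inhibition than in control (adjusted p = 5.79e-08, log2 fold change 1.08, SE 0.10 by edgeR) and with spermidine than with inhibition (adjusted p = 4.29e-05, log2 fold change 0.54, SE 0.083). Tnfaip2, induced by TNF in many cell types, had 3.18, 2.23 and 3.48 CPM in the spermidine libraries, 5.90, 6.43 and 5.85 CPM in the inhibition libraries and 12.97, 14.7 and 14.7 CPM in control libraries. Here spermidine was lowest and control highest without overlap, and both steps passed by edgeR (inhibition over control adjusted p = 2.85e-08, log2 fold change -1.22, SE 0.11; spermidine over inhibition adjusted p = 7.13e-06, log2 fold change -1.06, SE 0.14).

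Other genes of the pathway were read from 5 further lists. Over all tested genes, 36.2% passed as higher and 36.1% as lower with inhibition against control. With spermidine against inhibition the shares were 29.1% and 28.9%. Of 44 other NF-kB signalling components, all tested, 17 were higher and 14 lower with inhibition than in control, with a median log2 fold change of 0.11 against 0.021 over all tested genes. Rbck1, encoding HOIL-1 of the linear ubiquitin ligase, fell (16.7 against 83.9 CPM, log2 fold change -2.34, SE 0.053), whereas the kinase gene Map3k8, encoding TPL-2, rose (42.5 against 14.8 CPM, log2 fold change 1.53, SE 0.048), as did Tax1bp1, an adaptor of A20 (243 against 107 CPM, log2 fold change 1.18, SE 0.035), and Peli1, a ubiquitin ligase (72.9 against 34.7 CPM, log2 fold change 1.07, SE 0.046). With spermidine over inhibition, 8 of these 44 were higher and 13 lower (median -0.013), with Map3k8 higher (56.0 against 42.5 CPM, log2 fold change 0.39, SE 0.039). Lower there were Tax1bp1 (194 against 243 CPM, log2 fold change -0.33, SE 0.033), Commd1, whose product helps remove RelA from chromatin (196 against 261 CPM, log2 fold change -0.41, SE 0.04), and Ube2n, the ubiquitin-conjugating enzyme Ubc13 that works with Traf6 (393 against 468 CPM, log2 fold change -0.25, SE 0.025).

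Of 33 other receptors and co-receptors, 30 were tested, and 22 were higher and 4 lower with inhibition than in control (median 1.06). The shares over all tested genes were 36.2% and 36.1% there, and 29.1% and 28.9% with spermidine over inhibition. Il1r1, the signalling receptor of IL-1, rose (17.5 against 1.61 CPM, log2 fold change 3.44, SE 0.095), and it was also above control with spermidine (28.0 against 1.61 CPM, log2 fold change 4.11, SE 0.088). Clec4e, a receptor for damaged cells and mycobacterial lipid (65.3 against 6.22 CPM, log2 fold change 3.39, SE 0.062), Cd14, the co-receptor of lipopolysaccharide (60.3 against 7.06 CPM, log2 fold change 3.09, SE 0.061), and Clec7a, the beta-glucan receptor dectin-1 (25.4 against 4.14 CPM, log2 fold change 2.61, SE 0.09), rose with inhibition in the same libraries as the monocyte and neutrophil lists given above. Cd14 also stands in the monocyte list, and the part of those cells was not tested. With spermidine over inhibition 6 receptors were higher and 12 lower (median -0.089), Clec7a (7.40 against 25.4 CPM, log2 fold change -1.78, SE 0.077) and Cd14 (29.4 against 60.3 CPM, log2 fold change -1.03, SE 0.047) among the lower.

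Of 41 inducible targets, 32 were tested, and 18 were higher and 11 lower with inhibition than in control (median 0.69). The shares over all tested genes were 36.2% and 36.1% there, and 29.1% and 28.9% with spermidine over inhibition. Lcn2, a neutrophil granule protein that is also induced by NF-kB, rose (649 against 11.6 CPM, log2 fold change 5.81, SE 0.045), as did the chemokine gene Ccl4 (301 against 113 CPM, log2 fold change 1.42, SE 0.031) and Vcam1, an adhesion molecule also listed for macrophages (33.7 against 9.14 CPM, log2 fold change 1.88, SE 0.058), while the interferon-induced chemokine gene Cxcl10 fell (17.7 against 51.7 CPM, log2 fold change -1.55, SE 0.052). With spermidine over inhibition 8 were higher and 11 lower (median -0.065). Ccl4 (398 against 301 CPM, log2 fold change 0.40, SE 0.029) and Ccl3 (293 against 231 CPM, log2 fold change 0.34, SE 0.029) were higher there, and Lcn2 (203 against 649 CPM, log2 fold change -1.68, SE 0.032) and Ccl2 (49.8 against 75.3 CPM, log2 fold change -0.60, SE 0.041) were lower.

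Of 22 other inflammasome genes, 20 were tested, and 13 were higher and 5 lower with inhibition than in control (median 0.53). The shares over all tested genes were 36.2% and 36.1% there, and 29.1% and 28.9% with spermidine over inhibition. Casp4, which senses intracellular lipopolysaccharide, rose (109 against 56.5 CPM, log2 fold change 0.94, SE 0.039), and Txnip, a thioredoxin inhibitor, fell (36.4 against 67.5 CPM, log2 fold change -0.89, SE 0.044). With spermidine over inhibition 5 were higher and 8 lower (median -0.087). Of 14 SOCS genes and cytokine antagonists 12 were tested, with 7 higher and 2 lower for inhibition over control (median 0.36), among them Il18bp, the decoy of IL-18 (13.9 against 5.40 CPM, log2 fold change 1.36, SE 0.11), on the higher side and Tgfb1, an HSC quiescence factor (6.29 against 33.7 CPM, log2 fold change -2.41, SE 0.069), on the lower side. For spermidine over inhibition 4 of the 12 were higher and 2 lower (median 0.36), beside a median of 0.027 over all tested genes. All these counts are from the same edgeR fit with TMM factors; library totals shift the spermidine medians upward by 0.26. In either direction, 72.4% of all tested genes passed for inhibition against control. The lists had 70.5% for signalling components, 86.7% for receptors, 90.6% for targets, 90% for inflammasome genes and 75% for SOCS genes and antagonists. For spermidine against inhibition, 58.1% of all tested genes passed, and the lists had 47.7%, 60%, 59.4%, 65% and 50% in the same order. Several of these shares are near or below that of all tested genes. For spermidine against control, higher and lower counts were 13 and 14 for signalling components, 20 and 4 for receptors, 16 and 10 for targets, 10 and 4 for inflammasome genes and 7 and 1 for SOCS genes and antagonists, where 41.0% of all tested genes passed as higher and 37.1% as lower.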

How the data were processed

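RNA of sorted mouse bone marrow HSCs was measured by low-input polyadenylated RNA sequencing in 9 libraries. The submitters' processing notes list the build mm10 and, without roles or order, edgeR 3.24.3, HTSeq 0.10.0, STAR 2.6.1d and Trim Galore 0.6.2. Estimated counts of each gene, which the authors deposited unscaled between libraries, are the basis of the tests; 48.2% of values are whole to within 1e-06, and the step that made fractional values is not given in the sources used here. The authors also deposited TPM values, scaled within each library for length and depth.

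Estimated counts were rounded and tested in R 4.3.3 with edgeR 4.0.16 (quasi-likelihood test, TMM factors, default filter on low counts, 1 model over the 9 libraries with group means). Of 19454 genes, 14461 were tested, and adjustment was by Benjamini-Hochberg over these, with a threshold of 0.05. An SE is the absolute log2 fold change divided by the square root of its F statistic, and 95% intervals are 1.96 SE to each side. CPM uses the TMM factors. A count of 0 (3 counts as the limit) allows up to 0.117 to 0.184 CPM, counting error only. The procedure was tested on simulated data in which a small set of genes was changed, up and down, at 1 fixed dispersion. In these data most genes differ between groups, so that run cannot judge the choice of scaling. The alternatives were library totals, DESeq2 1.42.0, other filters, limma 3.58.1 on log2(TPM + 1) and log2(TPM + 0.1), fits of 2 groups, a replicate block and leaving out each library. The labels do not say whether the replicate numbers pair libraries across groups. Residual expression of the 9 same-numbered pairs correlated at -0.037 to 0.053, and no block entered the reported fit. With 3 libraries per group these correlations cannot exclude a pairing.

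Gene coordinates are GENCODE M21 gene bounds on mm10, 1-based, and all 40 members are protein-coding there. Exons of 13 members overlap another annotated gene, and the labels state no strand-specific step, so reads there cannot be assigned. The overlap exceeds 10% of exon bases in 5, which are Nfkbib (14.5%), Pycard (12.8%), Icam1 (11.7%), Nfkb2 (11.6%) and Myd88 (11.3%). Smaller overlaps include Irak4 with Twf1 (7.87%), Nfkb2 with Psd (6.52%), Irak3 with Tmbim4 (5.22%) and Ikbkg with G6pdx (5.15%). Promoter sequences are from RefSeq (GRCm38.p6), and for 31 of 35 windows the last 30 bases lie in a GENCODE transcript of the gene. The 40 members and all gene lists were chosen with earlier results of these data known. All members may be named, and from each further list up to 4 genes with the smallest p in a comparison.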

Additional observations from a re-analysis of the deposited data

How the results depend on the processing

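For inhibition against control, none of the 40 members reversed. The members called at least 2-fold were 6 higher and 5 lower on log2(TPM + 1), with or without a filter on low values; a pseudocount of 1 compresses low genes by its construction. For spermidine against inhibition, library totals gave 23 members higher and 6 lower, and 7703 of all genes higher and 1801 lower. limma on log2(TPM + 1) gave 23 and 5 members and 7112 and 1256 genes, without the filter 23 and 5 members and 7997 and 1333 genes, and on log2(TPM + 0.1) 23 and 5 members and 7079 and 1226 genes. With TPM + 1, filtered or not, 0 members were at least 2-fold higher (23 higher at an adjusted p under 0.05 by limma) and 1 was lower. A limit of 5 CPM, under which fewer genes are tested, left 8 members lower, 0 at least 2-fold higher (with 11 higher at any size by edgeR) and 1 at least 2-fold lower, and 2766 genes higher and 2626 lower. With library totals the log2 fold changes of spermidine over inhibition turned to 0.17 for Ikbkb, 0.091 for Chuk, 0.13 for Irak4, 0.24 for Traf2, 0.13 for Casp1 and 0.0086 for Pycard. On log2(TPM + 1) they turned to 0.26 for Chuk, 0.042 for Tnf, 0.17 for Tnfrsf1a, 0.18 for Irak4, 0.28 for Traf2, 0.15 for Casp1 and 0.034 for Pycard, with the same values without the filter. On log2(TPM + 0.1) they turned to 0.30 for Chuk, 0.050 for Tnf, 0.19 for Tnfrsf1a, 0.20 for Irak4, 0.30 for Traf2, 0.16 for Casp1 and 0.034 for Pycard. For spermidine against control, the limit of 5 CPM gave 3621 genes higher and 3415 lower, log2(TPM + 1) 2811 lower, log2(TPM + 0.1) 2751 lower and 16 members at least 2-fold higher, and log2(TPM + 1) without the filter 9239 higher and 2918 lower. There Nfkb1, Tnip1 and Traf6 turned to 0.16, 0.26 and 0.25 with library totals, Ikbkb to 0.070 on log2(TPM + 1) with or without the filter and 0.072 on log2(TPM + 0.1), and Tnip1 to 0.24 and 0.32 on log2(TPM + 1) and log2(TPM + 0.1). TMM and library totals differ by construction in the 0.26 shift of all genes given above. The limma fits on TPM also used no TMM factors, so they are no separate check on the scaling. What else entered the reversals on TPM was not tested. Across all member values under alternatives, 2136 in number, 35 turned direction with a call on one side and 63 more turned where neither value was called.

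Leaving out 1 library in turn gave 19 to 20 members higher and 13 to 16 lower for inhibition against control, 11 to 13 and 13 to 16 for spermidine against inhibition, and 17 and 14 throughout for spermidine against control. With the replicate block, all 120 member values kept their direction and call, although the labels do not say whether the replicate numbers pair libraries. Depth limits Nlrp3, Relb, Bcl3, Il1rn and Irak2, which had few counts.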
